A study of Mus musculus with 31 samples.

Results

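Gene expression in whole lung of AKR mice was compared between 3 arrays of animals that had breathed cigarette smoke and 3 arrays of animals that had breathed room air, all of which then received normal saline through the trachea. These 6 arrays were chosen by their labels from the 31 arrays of the series, which also holds C57 BL/6 (C57) mice and mice instilled with lipopolysaccharide (LPS). AKR is an inbred mouse strain. Every animal was male and labelled 6 weeks of age, and the labels name no engineered allele. Sample titles put both groups at 3 weeks, but the study's design text assigns 6 weeks to instilled mice, so the length of exposure is uncertain. The other AKR arrays used beside them were 2 of room air with no instillation, 3 of room air with LPS and 2 of smoke with LPS. From C57, 3 arrays of room air with saline and 3 of smoke with saline were used. Among the 31 arrays there is no smoke group that was spared instillation, so each smoke value here is of a lung that had also received saline. The titles number the arrays of a group as biological replicates, and nothing says how exposures were divided into cages or days. The p-values measure the spread between these arrays only.

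Smoke carries electrophiles and oxidants that release the transcription factor NRF2 from its inhibitor KEAP1, and NRF2 then switches on genes that make glutathione, regenerate NADPH and detoxify quinones. Its polycyclic aromatic hydrocarbons bind the aryl hydrocarbon receptor, which induces cytochrome P450 genes of the CYP1 family. The lung also has a circadian clock: CLOCK and BMAL1 (encoded by Arntl) drive their own repressors, the Per and Cry genes, and the output factors Dbp, Tef and Hlf, so that most of these genes peak at opposite times of day from Arntl. The labels do not give the hour at which the lungs were taken.

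The deposited values are log2 intensities, on which a difference of 1 is a doubling. The surfactant gene Sftpc, of alveolar type 2 cells, lay between 13.43 and 13.75 on the 6 arrays, and Scgb1a1, of airway club cells, between 13.64 and 13.79, which fits the labelled tissue. Pairs of the 6 arrays had correlations between 0.957 and 0.986 across genes. Principal component 1, with 45.9% of the variance, did not separate the exposures: smoke replicate 3 lay at -16.60 beside air replicates 1 and 2 (-6.85 and -23.05), and air replicate 3 lay at 22.997 beyond smoke replicates 1 and 2 (12.79 and 10.71). Component 2, with 22.9%, was positive on the 3 air arrays and negative on the 3 smoke arrays. Values are therefore given per array, in the order of replicates 1, 2 and 3, and for 4 gene lists counts without both replicate 3 arrays are given as a description.

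At an adjusted p under 0.05 with limma, 4 of the 14199 genes tested differed between smoke and air, which is 0.0282%. Per3, Hlf and Krt15 rose (0.0211% of genes) and Spon2 fell (0.00704%). These calls use a spread estimated over 13 AKR arrays, LPS groups included. With the 6 arrays alone in the fit, 0 genes passed on the higher side and only Spon2 passed on the lower (limma). At an unadjusted p under 0.05, 576 genes were higher (4.06%) and 500 lower (3.52%). On every smoke array, 910 genes lay above every air array (6.41%) and 763 lay below (5.37%). The median log2 difference over all genes was 0.01. With 3 arrays a group, an exact two-sided permutation test of a single gene cannot give a p below 0.10. The count of 4 depended on single arrays: it was 0 without air replicate 1 or without smoke replicate 1 (limma, with 781 and 950 genes at an unadjusted p under 0.05), 44 without smoke replicate 3 and 214 (1.51%) without both replicate 3 arrays. All 4 genes were among the 44 and among the 214. The replicate 3 arrays were singled out because their values lie near the other group, so leaving them out selects on the outcome and favours more calls. The counts without them describe the remaining arrays and support no change. With room air alone as the control in place of air with saline it was 213 (1.5%), of which 3 were among the 4. The word "higher" or "lower" is used below for values, and "rose" or "fell" only for genes past the adjusted threshold.

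Genes of the circadian clock gave 2 of the 3 increases. Per3, a period gene that represses CLOCK and BMAL1, had log2 values of 8.83, 8.65 and 9.01 on the air arrays and 10.06, 9.84 and 9.96 on the smoke arrays. Every smoke array lay well above every air array, and the 2 arrays of room air alone, at 8.80 and 8.99, lay with the air arrays. Per3 rose by 1.12 ± 0.12 (standard error of the fit; n = 3 arrays a group), or 2.18-fold, with an adjusted p of 0.00868 (limma). Hlf, an output factor of the proline and acidic amino acid-rich family, had values of 7.57, 7.73 and 7.36 with air and 8.37, 8.32 and 8.53 with smoke. It rose by 0.86 ± 0.10 (adjusted p = 0.0157, limma), and its arrays did not overlap between the groups. Against room air alone, where Hlf lay at 7.94 and 8.02, the difference was 0.43, less than that against air with saline.

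Other repressors and outputs lay on the same side without passing the adjusted threshold. Per2 had values of 8.92, 9.22 and 9.23 with air and 10.29, 9.92 and 9.92 with smoke, a difference of 0.92 ± 0.15 (adjusted p = 0.0849, limma). Wee1, a mitotic kinase under clock control, had values of 8.43, 8.20 and 8.56 with air and 9.31, 9.15 and 8.92 with smoke, a difference of 0.73 ± 0.12 (adjusted p = 0.0916, limma). In both genes the 3 smoke arrays stood above the 3 air arrays with a gap between the groups. Tef differed by 0.49 ± 0.12, Cry2 by 0.33 ± 0.09 and Nr1d2 by 0.37 ± 0.12, again with no overlap. Dbp lay at 9.10, 8.73 and 9.28 with air and 10.22, 9.55 and 9.34 with smoke, so that smoke replicate 3 exceeded air replicate 3 by little. The arrays of room air alone had Dbp at 9.67 and 9.80, and against them the smoke difference was -0.02. Nr1d1, which encodes the repressor REV-ERB alpha, went the other way at -0.41 ± 0.16, with smoke replicate 1 among the air arrays.

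The activating side was lower. Arntl had values of 7.54, 8.03 and 7.71 on the air arrays and 6.36, 7.05 and 6.71 on the smoke arrays, a difference of -1.05 ± 0.17 (adjusted p = 0.0813, limma). All 3 smoke arrays lay below all 3 air arrays. The arrays of room air alone lay between them at 7.31 and 7.19, and against those the difference was -0.54. Clock lay at 9.43, 9.45 and 9.48 with air and 9.10, 9.20 and 9.12 with smoke, a difference of -0.32 ± 0.08, and Nfil3, a repressor of D-box genes, differed by -0.36 ± 0.13, both with no overlap. Cry1, whose transcript peaks later than those of the Per genes, had values of 7.41, 7.49 and 7.30 with air and 7.80, 8.10 and 8.23 with smoke, a difference of 0.65 ± 0.14 (adjusted p = 0.176, limma).

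Of the 14 repressor and output genes tested, 2 rose, and 8 lay wholly above the air arrays (6.41% of all genes). At an unadjusted p under 0.05, 10 were higher and 1 was lower (4.06% and 3.52% of all genes). Their median difference was 0.47. Without both replicate 3 arrays 4 passed the adjusted threshold, Per3, Hlf, Per2 and Wee1 (1.01% of all genes passed on the higher side). Of the 4 genes of the activating phase, 3 were lower and 1 was higher at an unadjusted p under 0.05 with all 6 arrays. A list's level on an array is the mean over its genes of each value minus the gene's mean over the 6 arrays. For the repressors and outputs it was -0.30 to -0.14 on the air arrays and 0.10 to 0.48 on the smoke arrays, highest on smoke replicate 1. Replicate 3 of each group lay with its own group, as in several lists below but not in the NRF2 targets.

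**Figure D1:**
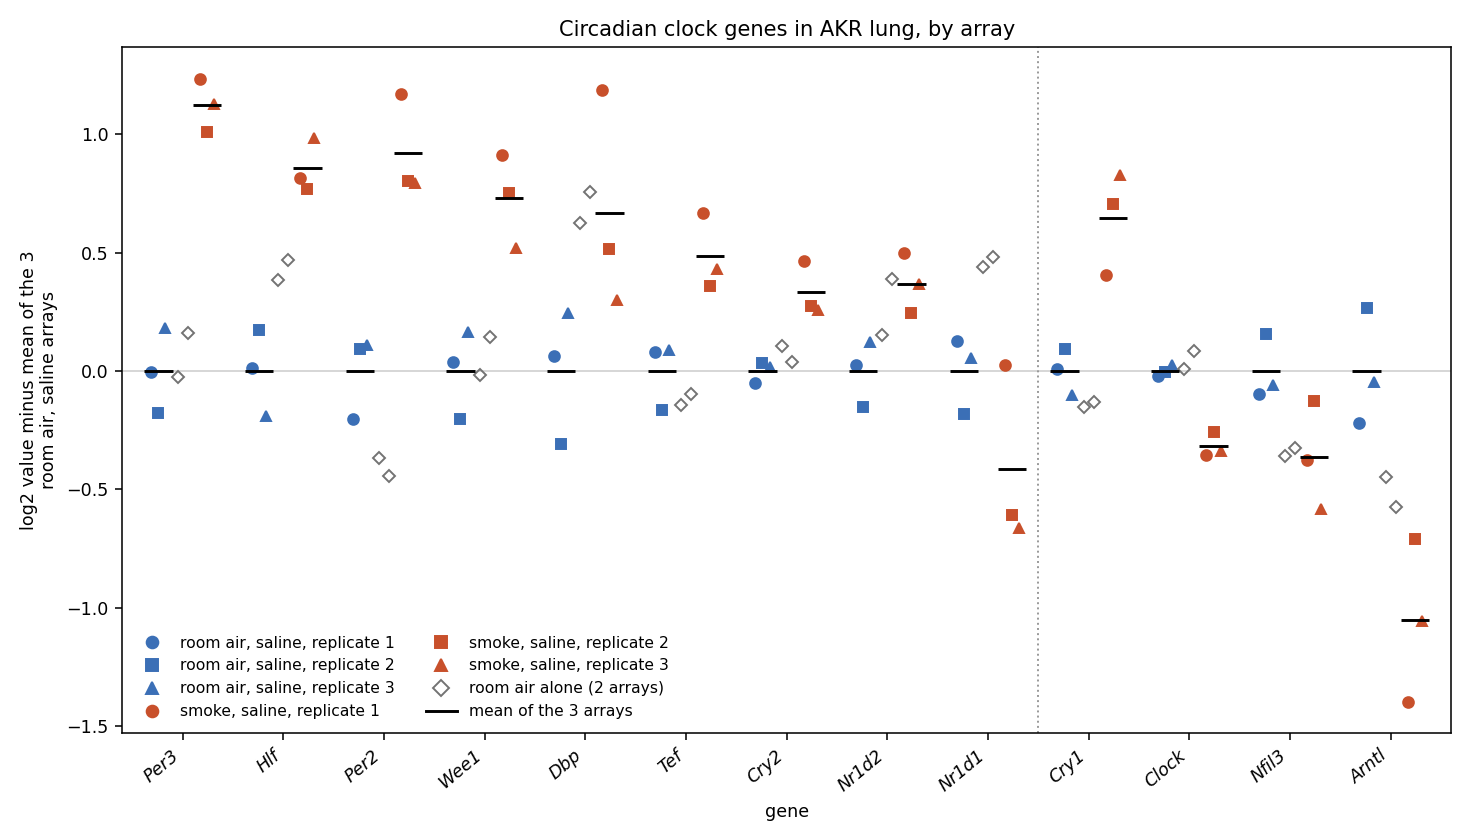
Log2 value of 13 clock genes on each array, minus the mean of the 3 room air, saline arrays; blue is room air, orange is smoke, marker shapes are replicates, open diamonds are room air alone and black bars are means of 3 arrays. Per3, Hlf, Per2, Wee1, Tef and Cry1 have all 3 smoke arrays above all 3 air arrays, while Clock, Nfil3 and Arntl have them below; the dotted line separates the repressors and outputs from the genes of the activating phase.

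CLOCK and BMAL1 bind the E-box CACGTG, and DBP, TEF, HLF and NFIL3 bind the D-box, searched here as TTATGTAA. Both were looked for on both strands in the 250 bases before each start site in RefSeq (GRCm38.p6), where 15 of the 18 clock genes had an entry. An E-box was found for 5 of them (Bhlhe41, Ciart, Cry1, Per1 and Tef) against 6.86% of all 27025 genes, and a D-box for 1 (Per3) against 0.977%. The windows of Per3, which holds the D-box letters at 2 places, of Cry1 and of both start sites of Tef are shown because these genes stood apart between the groups and carry the letters, which are in capitals. A match is a description of the sequence and not a binding site.
Per3 (chr4:151044666-151044915, minus strand): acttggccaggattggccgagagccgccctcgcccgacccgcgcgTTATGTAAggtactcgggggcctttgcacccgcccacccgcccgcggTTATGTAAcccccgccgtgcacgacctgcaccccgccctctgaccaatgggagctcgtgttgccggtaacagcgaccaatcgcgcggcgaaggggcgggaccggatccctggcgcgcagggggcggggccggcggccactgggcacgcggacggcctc
Cry1 (chr10:85185055-85185304, minus strand): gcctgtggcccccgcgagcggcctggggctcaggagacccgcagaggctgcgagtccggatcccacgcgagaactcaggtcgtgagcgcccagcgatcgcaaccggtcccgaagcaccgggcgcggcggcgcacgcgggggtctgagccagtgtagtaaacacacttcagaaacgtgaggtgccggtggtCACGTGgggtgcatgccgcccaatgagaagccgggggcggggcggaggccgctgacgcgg
Tef, start site 1 (chr15:81802423-81802672, plus strand): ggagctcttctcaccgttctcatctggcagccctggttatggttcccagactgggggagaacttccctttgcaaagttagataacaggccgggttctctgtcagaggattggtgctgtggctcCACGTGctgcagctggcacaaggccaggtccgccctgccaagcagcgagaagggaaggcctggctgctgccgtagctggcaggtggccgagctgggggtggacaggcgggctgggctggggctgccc
Tef, start site 2 (chr15:81811164-81811413, plus strand): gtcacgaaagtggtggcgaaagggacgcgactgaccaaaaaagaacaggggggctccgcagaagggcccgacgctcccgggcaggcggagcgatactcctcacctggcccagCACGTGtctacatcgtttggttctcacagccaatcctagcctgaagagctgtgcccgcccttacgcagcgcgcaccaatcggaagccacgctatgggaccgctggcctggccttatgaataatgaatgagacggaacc

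None of the 28 NRF2 targets tested passed the adjusted threshold, while 11 were higher and 0 lower at an unadjusted p under 0.05 (4.06% and 3.52% of all genes). Wholly above the air arrays lay 7 targets (6.41% of all genes). Their median difference was 0.29. Slc7a11, the cystine carrier that supplies cysteine for glutathione, had the largest difference among the genes named here, with values of 6.73, 7.05 and 7.64 on the air arrays and 10.11, 10.64 and 8.75 on the smoke arrays. Smoke replicates 1 and 2 lay more than 2 log2 units above every air array, and replicate 3 more than 1 unit above the highest of them. The difference was 2.69 ± 0.40, or 6.47-fold (adjusted p = 0.0740, limma). Nqo1, a quinone reductase that is also a target of the aryl hydrocarbon receptor, had values of 6.999, 6.85 and 7.30 with air and 8.84, 8.61 and 7.53 with smoke, a difference of 1.28 ± 0.28 (adjusted p = 0.203, limma). Blvrb, which reduces biliverdin and flavins, had values of 8.89, 8.93 and 8.82 with air and 10.72, 10.58 and 9.26 with smoke, a difference of 1.30 ± 0.31 (adjusted p = 0.256, limma). In both, smoke replicate 3 was just above the highest air array and the other smoke arrays were more than 1 log2 unit above it.

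Some further targets showed the same split between smoke replicates. Pgd, of the pentose phosphate pathway, had values of 10.56, 10.46 and 10.83 with air and 11.51, 11.56 and 10.74 with smoke. Gstp1, a glutathione transferase, had values of 11.54, 11.57 and 11.68 with air and 12.29, 12.36 and 11.62 with smoke. Akr1b8, an aldo-keto reductase, had values of 8.32, 8.44 and 8.43 with air and 9.28, 9.51 and 8.44 with smoke. In each of them smoke replicates 1 and 2 stood above every air array and smoke replicate 3 lay within the range of the air arrays. Taldo1, also of the pentose phosphate pathway, differed by 0.54 ± 0.17, and Gclm, the modifier subunit of glutamate-cysteine ligase, by 0.64 ± 0.16. Gclm was high on air replicate 3 as well (9.90, 9.81 and 10.44 on the air arrays).

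A few NRF2 targets were higher on smoke replicate 3 as well. Srxn1, which repairs overoxidized peroxiredoxins, had values of 8.25, 8.11 and 8.19 with air and 8.70, 8.80 and 8.55 with smoke, a difference of 0.50 ± 0.09 (adjusted p = 0.155, limma). Ugdh, which makes UDP-glucuronic acid, differed by 0.24 ± 0.08, and Ftl1, the light chain of the iron store ferritin, by 0.23 ± 0.08. For both, the 3 smoke arrays lay above the 3 air arrays, although the arrays of room air alone overlapped the smoke arrays for Ftl1 (12.45 and 12.42 against 12.62, 12.45 and 12.36). Gclc, the catalytic subunit of the ligase, differed by 0.09 ± 0.19 and Hmox1, which breaks down heme, by 0.02 ± 0.17, both with overlapping groups. The sign of these 2 differences turned when single arrays were left out.

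Against 0 of 28 over the 6 arrays, 7 targets passed on the higher side without smoke replicate 3 (0.289% of all genes). Without both replicate 3 arrays 10 passed (1.01%) and 22 were higher at an unadjusted p under 0.05 (9.78%), with a median of 0.61. Since smoke replicate 3 was low and air replicate 3 high for this list, these counts follow in part from which arrays were left out. The list's level was 0.43 and 0.40 on smoke replicates 1 and 2, -0.12 on smoke replicate 3, -0.30 and -0.38 on air replicates 1 and 2, and -0.03 on air replicate 3.

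The aryl hydrocarbon receptor's best known target, Cyp1a1, was below the filter on dim probe sets. Its log2 values were 5.45, 5.38 and 5.40 on the air arrays and 5.69, 5.93 and 5.85 on the smoke arrays, so the 3 smoke arrays lay above the 3 air arrays at a dim signal. Cyp1b1, a related cytochrome, had values of 7.58, 7.20 and 7.76 with air and 8.11, 8.29 and 7.35 with smoke, a difference of 0.41 ± 0.25 with overlapping groups. Tiparp, an ADP-ribosyltransferase that limits the receptor, differed by 0.11 ± 0.14, and Aldh3a1, an aldehyde dehydrogenase of the airway, by 1.11 ± 0.38 (adjusted p = 0.535, limma). Aldh3a1 lay at 8.70, 8.31 and 9.23 with air and 10.36, 9.97 and 9.23 with smoke, so smoke replicate 3 equalled air replicate 3. Of the 4 targets tested, 0 passed the adjusted threshold and 2 (Nqo1 and Aldh3a1) were higher at an unadjusted p under 0.05 (4.06% of all genes). Ahrr, the receptor's repressor, was also below the filter.

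**Figure D2:**
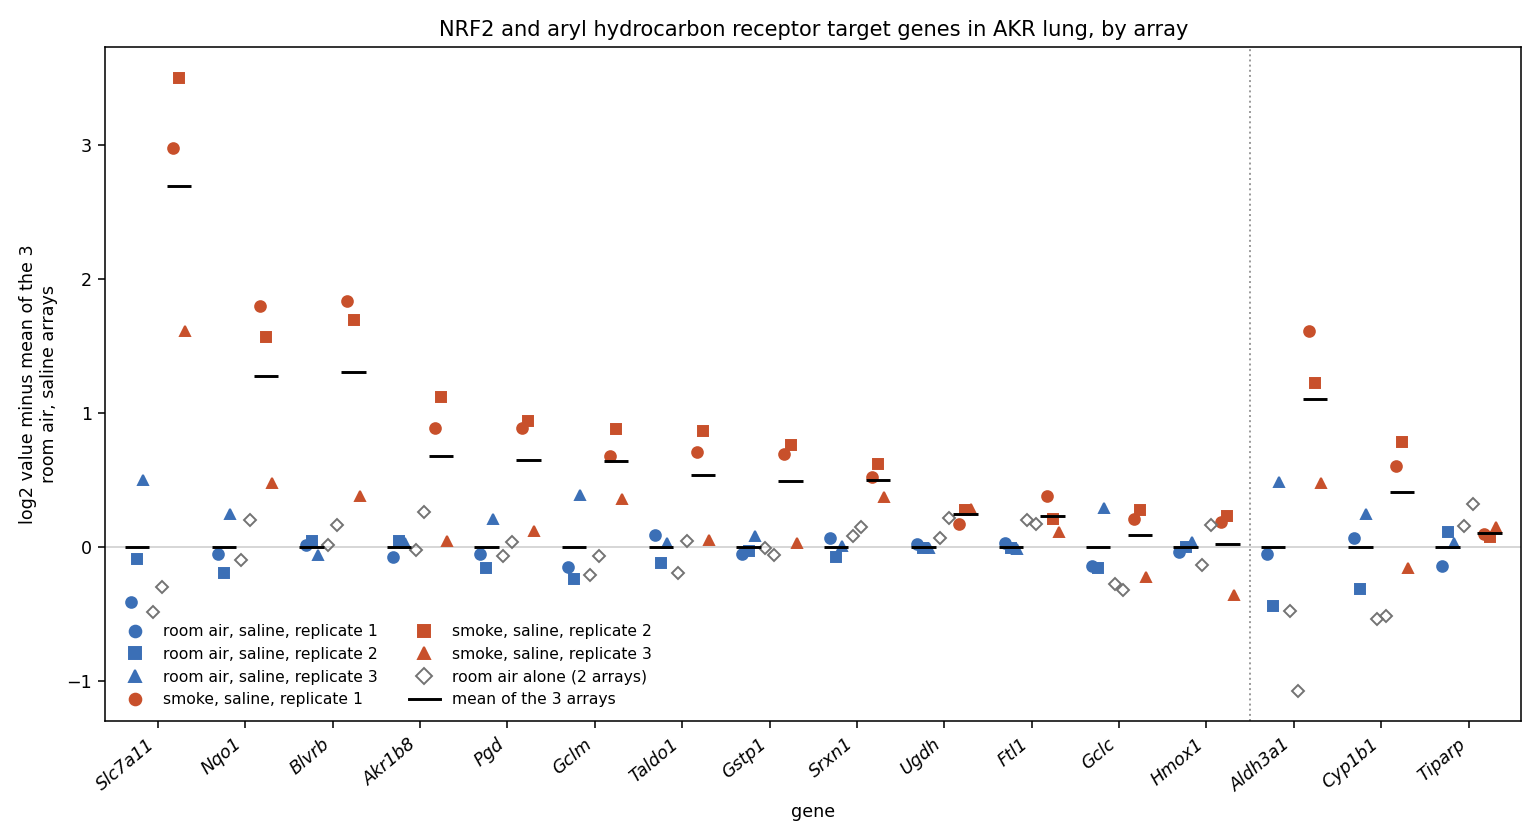
Log2 value of 13 NRF2 targets and, right of the dotted line, 3 further targets of the aryl hydrocarbon receptor on each array, minus the mean of the 3 room air, saline arrays; colours, shapes and bars stand for exposures, replicates and means of 3 arrays. Smoke replicates 1 and 2 are high for Slc7a11, Nqo1, Blvrb, Akr1b8, Pgd, Taldo1 and Gstp1, smoke replicate 3 (orange triangle) lies near the air arrays for Akr1b8, Pgd, Taldo1 and Gstp1, and it lies with the other smoke arrays for Srxn1 and Ugdh.

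NRF2 acts through the antioxidant response element, searched here in the forms TGACNNNGC and TGANTCAGC on both strands, which can overlap. Of 23 targets with a promoter entry, 5 held the first form in the 250 bases before a start site (11.5% of all genes) and 4 held the second (1.17%): Gstp1, Osgin1, Prdx1 and Srxn1. The amino acid response element bound by ATF4, searched as TGATGCAA on both strands, was found at 2 places before Slc7a11 and in no other target (0.918% of all genes). Both windows are shown for Slc7a11, which has the largest difference, and for Srxn1, 1 of the 7 targets wholly above the air arrays, with the letters found in capitals.
Slc7a11 (chr3:50443614-50443863, minus strand): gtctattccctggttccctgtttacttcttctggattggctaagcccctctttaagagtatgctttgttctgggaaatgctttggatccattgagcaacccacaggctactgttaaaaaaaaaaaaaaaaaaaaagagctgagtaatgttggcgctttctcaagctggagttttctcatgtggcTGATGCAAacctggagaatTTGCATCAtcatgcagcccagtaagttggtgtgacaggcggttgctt
Srxn1 (chr2:152105274-152105523, plus strand): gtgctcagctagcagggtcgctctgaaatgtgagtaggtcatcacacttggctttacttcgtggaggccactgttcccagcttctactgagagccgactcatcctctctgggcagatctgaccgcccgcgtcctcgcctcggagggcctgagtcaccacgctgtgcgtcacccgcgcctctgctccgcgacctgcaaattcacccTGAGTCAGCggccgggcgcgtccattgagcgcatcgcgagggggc

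ATF4 drives the integrated stress response, which raises amino acid uptake and serine and one-carbon metabolism. Of 18 such genes, Slc7a11 included, 0 passed the adjusted threshold. At an unadjusted p under 0.05, 6 were higher and 1 was lower (4.06% and 3.52% of all genes). Mthfd1l, a mitochondrial enzyme of one-carbon metabolism, had values of 7.03, 6.85 and 7.27 with air and 7.96, 7.97 and 7.67 with smoke, a difference of 0.82 ± 0.14 (adjusted p = 0.0966, limma). All 3 smoke arrays exceeded all 3 air arrays. Psat1, of serine synthesis, had values of 7.37, 7.67 and 7.85 with air and 8.37, 8.90 and 7.50 with smoke, with smoke replicate 3 again inside the air range. Shmt2, Asns and Aldh1l2 had differences of 0.40, 0.42 and 0.53 with the same overlap. Atf4 itself was lower, at -0.23 ± 0.10, and Ddit3, Trib3 and Chac1, which mark a strong stress response, differed by -0.14, 0.01 and -0.03. The median over the list was 0.11. Without both replicate 3 arrays 3 passed on the higher side, Slc7a11, Mthfd1l and Psat1 (1.01% of all genes).

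Among epithelial genes, Krt15 rose. It encodes a keratin of basal and some club cells, and its values were 6.90, 6.75 and 6.68 on the air arrays and 7.95, 8.21 and 8.62 on the smoke arrays. The smoke arrays lay more than 1 log2 unit above the air arrays, replicate 3 highest, and the arrays of room air alone were lower still at 6.47 and 6.38. The difference was 1.49 ± 0.20, or 2.80-fold (adjusted p = 0.0416, limma). Krt5, the keratin that defines airway basal cells, had values of 6.24, 6.02 and 6.30 with air and 6.98, 7.17 and 8.51 with smoke, a difference of 1.37 ± 0.33 (adjusted p = 0.272, limma). Smoke replicate 3 was highest here as well. The air values of Krt5 lay near the filter on dim probe sets, which stood at 6.25, 6.23 and 6.21 on the air arrays. Sprr1a, a cornified envelope protein of squamous epithelium, followed another order with 6.76, 6.54 and 6.55 with air and 9.0, 9.70 and 6.82 with smoke: smoke replicates 1 and 2 were more than 2 log2 units above every air array and replicate 3 was close to the air arrays. Its difference was 1.89 ± 0.53 (adjusted p = 0.411, limma).

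Of the other markers of basal and squamous epithelium, Trp63, the transcription factor of basal cells, differed by 0.30 ± 0.15 and Krt14 by 0.09 ± 0.09, both with overlap, and Krt6a, Krt13, Krt4 and Dsg3 were below the filter. Slpi, a secreted inhibitor of neutrophil elastase, had values of 8.44, 8.56 and 7.77 with air and 9.65, 10.32 and 8.94 with smoke, a difference of 1.38 ± 0.29 (adjusted p = 0.176, limma). Its 3 smoke arrays lay above the 3 air arrays. Tmc5, a membrane protein of the airway, differed by 1.29 ± 0.38, and Scgb1c1, a secretoglobin, by -1.10 ± 0.22 (adjusted p = 0.170, limma), its smoke arrays at 9.84, 9.31 and 9.12 below the air arrays at 10.29, 10.55 and 10.74. Some airway genes varied widely between arrays of a group: the club cell gene Scgb3a1 was at 12.47, 8.50 and 12.92 with air and 13.40, 11.37 and 13.15 with smoke, lowest on air replicate 2. The level of the club cell list, to which Krt15 belongs, was -1.60 to 0.44 on the air arrays and -0.30 to 0.76 on the smoke arrays, and its part in the epithelial values was not tested.

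Spon2 was the gene that fell. It encodes a secreted matrix protein that binds bacterial lipopolysaccharide and integrins, and its values were 8.13, 8.03 and 7.98 on the air arrays and 6.36, 6.46 and 6.33 on the smoke arrays. The 3 smoke arrays lay close to one another and more than 1 log2 unit below every air array. Room air alone had 7.98 and 7.56, far above the smoke arrays. The difference was -1.66 ± 0.16, 3.16-fold lower with smoke (adjusted p = 0.00795, limma). It passed the adjusted threshold under 18 of 21 other ways of processing, against 15 for Per3, 14 for Hlf and 11 for Krt15. These ways reuse the same arrays and are not independent of one another. None of these genes passed without air replicate 1, without smoke replicate 1 or with a replicate block.

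Structural matrix genes were lower as a group without passing that threshold. Of 27 tested, 12 were lower and 0 higher at an unadjusted p under 0.05 (3.52% and 4.06% of all genes). Wholly below the air arrays lay 10 (5.37% of all genes), and the median difference was -0.25. Eln, which encodes elastin, had values of 10.55, 10.46 and 10.46 with air and 9.41, 9.68 and 9.43 with smoke, a difference of -0.98 ± 0.21 (adjusted p = 0.176, limma). The arrays of room air alone had 9.84 and 9.42, of which 1 lay within the range of the smoke arrays and 1 between the groups, and against these the difference was -0.12. Tnc, the matrix protein tenascin C, had values of 8.25, 8.01 and 8.12 with air and 7.22, 7.14 and 7.27 with smoke, a difference of -0.91 ± 0.15 (adjusted p = 0.0813, limma), and its 2 arrays of room air alone were higher than all others at 8.56 and 8.83. Loxl1, which cross-links elastin, lay at 9.51, 9.33 and 9.13 with air and 8.80, 8.82 and 8.74 with smoke and differed by -0.54 ± 0.11.

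Among collagens, Col3a1 had values of 9.83, 9.65 and 9.85 with air and 9.14, 9.46 and 9.04 with smoke, a difference of -0.56 ± 0.15 (adjusted p = 0.402, limma). Col5a1, Col5a2, Col6a2 and Col6a3 differed by -0.29, -0.25, -0.30 and -0.22, each with the smoke arrays below the air arrays. Col1a1 was at 10.95, 10.60 and 11.26 with air and 10.51, 10.65 and 10.12 with smoke with smoke replicate 2 just above air replicate 2. Fn1, Sparc and Mfap4 had differences of 0.00, -0.08 and 0.01. Adamts9, a secreted protease of the vessel wall, had values of 10.90, 11.23 and 10.87 with air and 9.88, 9.89 and 10.12 with smoke, a difference of -1.04 ± 0.15 (adjusted p = 0.0640, limma). Against room air alone, at 10.22 and 10.04, its difference was -0.17. Against room air alone the matrix list had 4 genes past the adjusted threshold on the lower side (1.3% of all genes) and a median of -0.42.

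The heat shock proteins, chaperones that heat shock factor 1 induces, were lower with smoke than with air and saline. Of 11 tested, 8 were lower and 0 higher at an unadjusted p under 0.05 (3.52% and 4.06% of all genes). The median difference was -0.58. The list holds 2 mitochondrial chaperones, Hspd1 and Hspe1, which differed by -0.31 ± 0.15 and -0.20 ± 0.16 and are not among the 8. Hspa1a, the inducible HSP70, had values of 9.42, 12.02 and 10.32 on the air arrays and 8.83, 8.997 and 8.18 on the smoke arrays, a difference of -1.91 ± 0.55 (adjusted p = 0.429, limma). Hsph1, its nucleotide exchange factor, had values of 9.80, 11.09 and 10.71 with air and 9.49, 9.27 and 8.78 with smoke, a difference of -1.35 ± 0.31 (adjusted p = 0.236, limma). In both, air replicates 2 and 3 were the highest of the 6 arrays and air replicate 1 lay nearest to the smoke arrays. Dnaja1, Bag3 and Chordc1 differed by -0.63 ± 0.14, -0.58 ± 0.15 and -0.58 ± 0.18. Room air alone had Hspa1a at 9.26 and 8.78 and Hsph1 at 8.64 and 8.17, below all 3 arrays of air with saline. Against those arrays the list's median was 0.22 and 3 genes were higher at an unadjusted p under 0.05 (6.75% of all genes). Snora31, a small nucleolar RNA, was at 9.66, 10.09 and 10.32 with air and 9.50, 8.72 and 8.28 with smoke and room air alone at 8.16 and 7.95.

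Nr4a3, an inducible nuclear receptor, had values of 8.22, 8.33 and 8.56 with air and 7.44, 7.24 and 6.81 with smoke, a difference of -1.21 ± 0.28 (adjusted p = 0.234, limma). Hdc, which makes histamine, had values of 10.49, 9.999 and 9.61 with air and 8.84, 8.98 and 9.17 with smoke, a difference of -1.04 ± 0.22 (adjusted p = 0.176, limma). The smoke arrays of both genes lay below the air arrays. The immediate early genes as a list had 0 of 15 past an unadjusted p of 0.05 and a median of -0.01. Markers of eosinophils, basophils and mast cells, the cells best known for Hdc, were mostly below the filter, 3 of 11 being tested, and their median difference was -0.04.

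**Figure D3:**
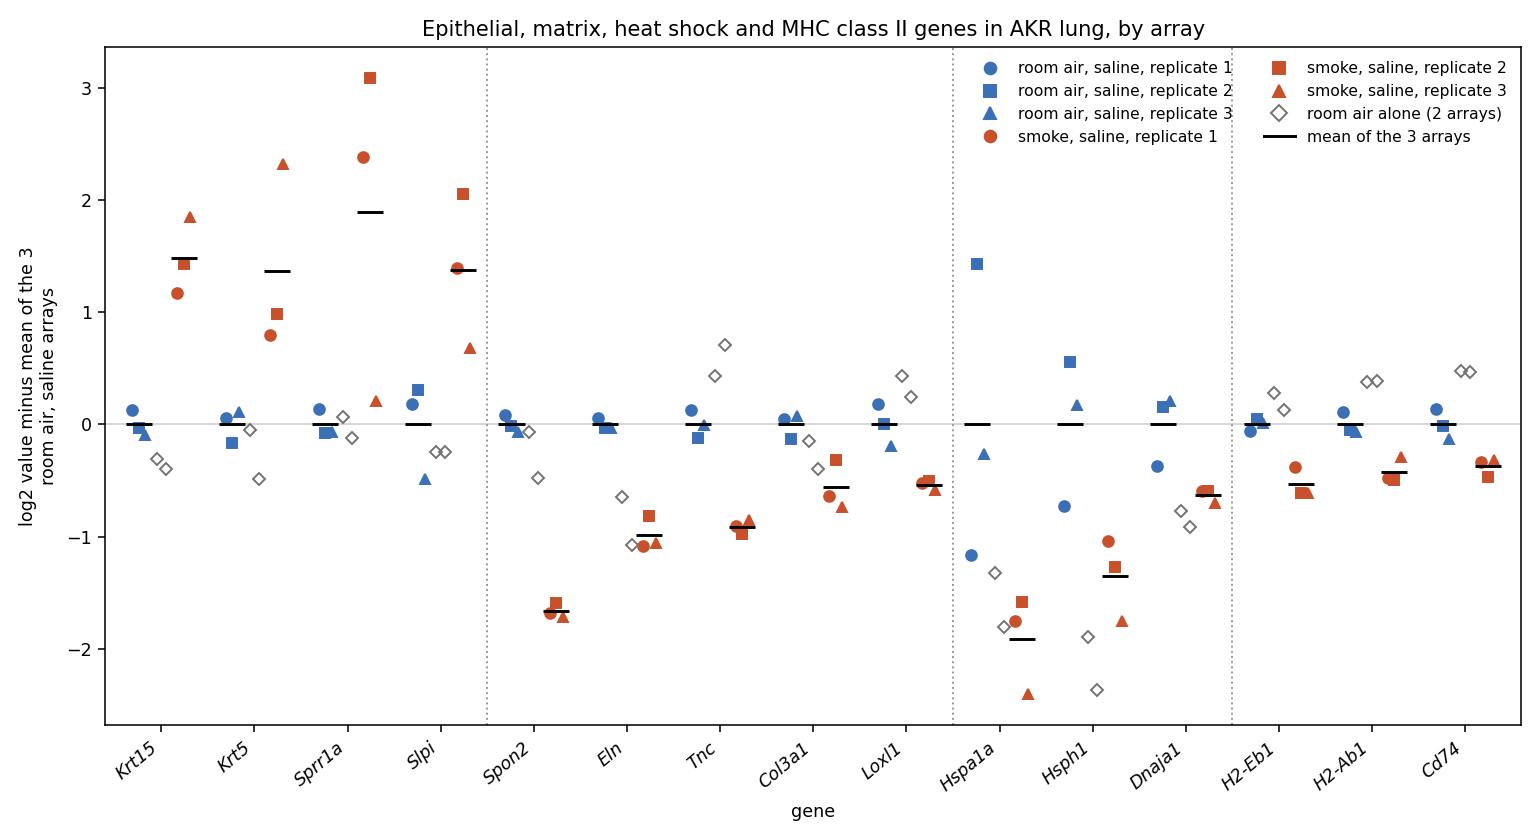
Log2 value of 15 genes on each array, minus the mean of the 3 room air, saline arrays, in 4 blocks separated by dotted lines: epithelial and secreted, matrix, heat shock and MHC class II genes. Krt15 and Spon2 have narrow groups far apart, Krt5 is highest on smoke replicate 3, Sprr1a is near the air arrays on smoke replicate 3, and for Eln and the heat shock genes the open diamonds of room air alone lie nearer to the smoke arrays than to the mean of air with saline.

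MHC class II genes, which present antigen to helper T cells, were lower with smoke. Of 9 tested, 6 were lower at an unadjusted p under 0.05 (3.52% of all genes) and 7 lay wholly below the air arrays (5.37%). None passed the adjusted threshold, and the median difference was -0.37. H2-Eb1, a class II beta chain, had values of 9.50, 9.61 and 9.57 with air and 9.19, 8.95 and 8.95 with smoke, a difference of -0.53 ± 0.15 (adjusted p = 0.441, limma). H2-Ab1 differed by -0.42 ± 0.13, and Cd74, the invariant chain that guides class II molecules, by -0.37 ± 0.13. Ciita, their master regulator, lay at 7.54, 7.39 and 7.39 with air and 7.17, 7.04 and 7.01 with smoke and differed by -0.37 ± 0.28. Room air alone was above both groups for these genes, with Cd74 at 12.10 and 12.09. These are bulk samples, so fewer cells of a type and less RNA per cell cannot be told apart.

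Markers of B cells and dendritic cells, which carry class II, lay mostly on the same side. Of 12 B cell genes, 8 lay wholly below the air arrays (5.37% of all genes), and the median was -0.35. Only 1 was lower at an unadjusted p under 0.05 (3.52% of all genes). That gene was Blk, a B cell kinase, at 6.96, 6.83 and 7.02 with air and 6.22, 6.61 and 6.50 with smoke. Cd79a, a part of the B cell receptor, had 7.33, 7.08 and 7.56 with air and 6.06, 6.78 and 7.07 with smoke, and Ms4a1, which encodes CD20, differed by -0.63 ± 0.41. The level of the B cell list was 0.03 to 0.29 on the air arrays, -0.36 to -0.01 on the smoke arrays, and 0.85 and 1.05 with room air alone, so the groups without smoke differed from each other by more than smoke and air with saline did. Among dendritic cell genes, Cd209a differed by -0.73 ± 0.29, Clec9a by -0.41 ± 0.20 and Flt3 by -0.26 ± 0.11, with the smoke arrays below, while Xcr1 was at 0.26 ± 0.14. The level of the 11 dendritic cell genes was 0.12, 0.14 and 0.03 with air and -0.13, -0.07 and -0.09 with smoke. Genes of monocytes and interstitial macrophages, which can also carry class II, overlapped between the groups. Their level was 0.04, -0.04 and 0.06 with air and -0.07, 0.005 and 0.002 with smoke. The part of these cells in the class II values was not tested.

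Macrophage genes that are known to be high in smoke-exposed lung gave 4 of 17 higher at an unadjusted p under 0.05 (4.06% of all genes). Of these 17, 6 lay wholly above the air arrays (6.41% of all genes). Lgals3, which encodes galectin 3, had values of 9.47, 9.65 and 9.11 with air and 10.37, 10.61 and 9.85 with smoke, a difference of 0.87 ± 0.21 (adjusted p = 0.259, limma). Cd68, a lysosomal protein of macrophages, differed by 0.54 ± 0.16, Ctsd, a lysosomal protease, by 0.32 ± 0.07 and Gpnmb, of lipid-laden macrophages, by 0.54 ± 0.21. Room air alone had Lgals3 at 9.98 and 10.20 and Cd68 at 9.01 and 9.32, within the range of the smoke arrays or, for 1 value of Cd68, above it, and against it 2 genes of the list were higher and 2 lower (6.75% and 12.6% of all genes), with a median of -0.14. Mmp12, the macrophage elastase, was at 6.07, 6.02 and 6.05 with air and 6.10, 6.64 and 6.06 with smoke, high on smoke replicate 2 alone. The markers of alveolar macrophages had a median difference of -0.00410, with 0 of 9 past an unadjusted p of 0.05.

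Of 23 cytokine and chemokine genes, 1 was higher and 1 lower at an unadjusted p under 0.05, near the shares of all genes (4.06% and 3.52%). The higher one was Ccl20, which attracts dendritic and Th17 cells, at 6.19, 6.56 and 6.75 with air and 6.95, 7.58 and 7.07 with smoke. The lower one was Cxcl15, a chemokine of lung epithelium, at 12.78, 12.64 and 13.06 with air and 12.61, 12.61 and 12.15 with smoke. None of 13 neutrophil genes reached that threshold, and their median was 0.03. Among acute-phase proteins, Orm1, an orosomucoid, had values of 7.66, 7.17 and 9.87 on the air arrays and 11.08, 11.51 and 9.67 on the smoke arrays, a difference of 2.52 ± 0.62 (adjusted p = 0.275, limma). Air replicate 3 was above smoke replicate 3, and the other arrays were far apart. Orm2 at 6.75, 6.04 and 9.82 with air and 10.66, 10.58 and 9.06 with smoke, Lcn2 at 10.22, 9.92 and 11.81 with air and 12.03, 12.01 and 11.13 with smoke and Saa3 at 6.22, 6.38 and 8.95 with air and 8.09, 8.65 and 8.26 with smoke showed the same high air replicate 3. Of the 11 tested, 4 were higher and 0 lower at an unadjusted p under 0.05 (4.06% and 3.52% of all genes). Their differences were positive for 7 and negative for 4, and the median was 0.08, or -0.21 without air replicate 2. None lay wholly above the air arrays, and Itih4 lay wholly below them with a difference of -0.40 ± 0.21. Hp, which encodes haptoglobin, differed by -0.28 ± 0.20. Without both replicate 3 arrays 5 passed on the higher side (1.01% of all genes), with air replicate 3 being the array high for this list.

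Interferon-stimulated genes stood highest on smoke replicate 2. Ifit1, an antiviral protein, had values of 7.88, 8.04 and 7.92 with air and 8.11, 10.93 and 8.39 with smoke, and Ifit3 had 9.09, 8.83 and 8.20 with air and 9.13, 11.61 and 10.07 with smoke. The level of the 18 genes was 1.46 on smoke replicate 2, -0.30 and -0.17 on the other smoke arrays, and -0.54 to -0.21 on the air arrays. The median difference was 0.58, and 0.09 without smoke replicate 2. At an unadjusted p under 0.05, 1 gene of the list was higher (4.06% of all genes).

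Markers of the tissues around the airspace also varied from array to array. The heart muscle list was at 0.61, -0.73 and 0.95 on the air arrays and 0.34, -0.13 and -1.04 on the smoke arrays, and Myh6, its main myosin, ran from 10.16 to 12.36. The endothelial list ran from -0.57 on air replicate 3 to 0.46 on air replicate 2, and was 0.32 on smoke replicate 3. The mesothelial list, of the cells that cover the lung, was 0.32, 0.62 and -0.35 on the air arrays and -0.47, -0.24 and 0.12 on the smoke arrays. In the last 2 lists both replicate 3 arrays lay on the other group's side, as on principal component 1, and the part of such tissue in the gene differences was not tested.

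**Figure D4:**
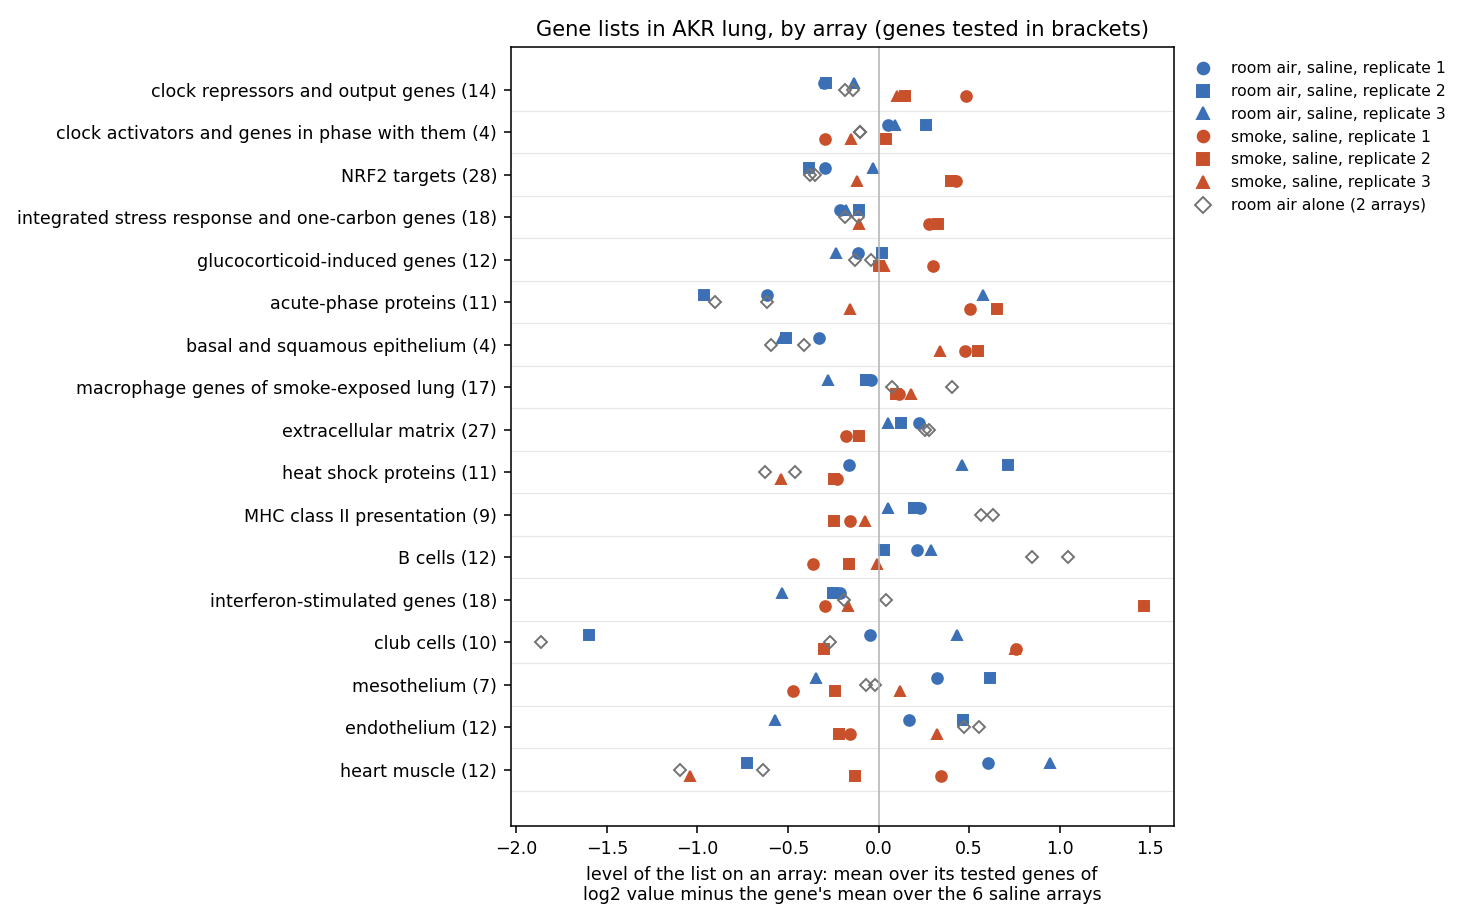
Level of 17 gene lists on the 6 saline arrays and the 2 arrays of room air alone; each point is the mean over a list's tested genes of the log2 value minus the gene's mean over the 6 saline arrays. Clock outputs, basal epithelium, matrix, MHC class II and B cell genes separate all smoke from all air arrays, whereas NRF2 targets, acute-phase, mesothelial and endothelial genes place replicate 3 of a group near the other group, and interferon-stimulated genes are high on smoke replicate 2 alone.

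The smoke difference was set beside 2 comparisons that use other arrays. With LPS in AKR (2 smoke and 3 air arrays), Per3 differed by 0.33 ± 0.13, Hlf by 0.44 ± 0.11, Per2 by 0.83 ± 0.17 and Arntl by -0.55 ± 0.19. Spon2 fell there as well, with a difference of -1.22 ± 0.18 (adjusted p = 0.0479, limma), in a comparison that called 16 genes (0.113%). Of the 14 clock repressors and outputs, 5 were higher and 1 lower with LPS at an unadjusted p under 0.05 (11.8% and 5.35% of all genes), with a median of 0.15. Of the 28 NRF2 targets 3 were higher, with a median of 0.17, and of the 12 B cell genes 2 were lower, with a median of -0.37. Of the 27 matrix genes 7 were lower and 2 higher, with a median of -0.07. Of the 17 macrophage genes 11 were higher and 0 lower, with a median of 0.57, and of the 9 MHC class II genes 4 were lower, with a median of -0.31. None of the 11 heat shock genes reached the threshold, and their median was 0.16. Slc7a11 differed by 0.15 ± 0.45 with LPS, Krt15 by 0.40 ± 0.22, Tnc by 0.52 ± 0.16 and H2-Eb1 by -0.69 ± 0.17. The test of the difference between the 2 settings passed for none of these; the adjusted p was 0.248 for Per3, 0.276 for Slc7a11, 0.366 for Krt15 and 0.0662 for Tnc (limma). It passed for 4 genes (0.0282%), Hal, Slc16a6, Thbs1 and Trmt61a, which are outside the rule for named genes and were chosen after their values were seen.

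In C57 with saline, 0 genes passed the adjusted threshold with limma, and 866 had an unadjusted p under 0.05 (6.07%). The array labelled C57 smoke saline replicate 3 had Saa3 at 12.47 against 6.10 and 6.36 on the other C57 smoke saline arrays. The cause was not tested, and each C57 difference is given with and without that array. Per3 differed by 0.13 ± 0.19 with it and 0.40 ± 0.13 without it, Hlf by 0.14 ± 0.23 and 0.45 ± 0.17, and Per2 by 0.61 ± 0.16 and 0.68 ± 0.18. Without that array, 5 of the 14 clock repressors and outputs were higher at an unadjusted p under 0.05 (1.96% of all genes), with a median of 0.25; with it, 1 was (4.23%). Krt15 differed by -0.24 ± 0.19 and -0.24 ± 0.22, Spon2 by -0.25 ± 0.15 and -0.28 ± 0.17, Nqo1 by -0.18 ± 0.27 and -0.04 ± 0.30, and Slc7a11 by 0.87 ± 0.73 and -0.19 ± 0.44. The NRF2 list had a median of 0.01 and -0.03. Of the 27 matrix genes 2 were higher and 0 lower with that array and 1 and 0 without it, with medians of 0.09 and 0.11, and of 16 macrophage genes 3 were higher and 0 lower with it and 2 and 1 without it. Cyp1a1, above the filter in this fit, differed by 0.85 ± 0.17 and 0.93 ± 0.18 in C57.

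The B cell genes were lower in C57 too: 7 of 12 at an unadjusted p under 0.05 with that array (1.84% of all genes) and 4 without it (0.918%), with medians of -0.62 and -0.27. The test of the strain by smoke interaction passed for 0 of 14265 genes, and for 0 without that array, while 724 and 611 had an unadjusted p under 0.05 (5.08% and 4.28%). Its smallest adjusted p was 0.241 (limma), shared by Spon2, with an interaction of -1.41, Krt15, with 1.72, Adamts9 and Nr4a3, and 0.377 without that array. No smoke difference of AKR was therefore shown to differ from that of C57.

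**Figure D5:**
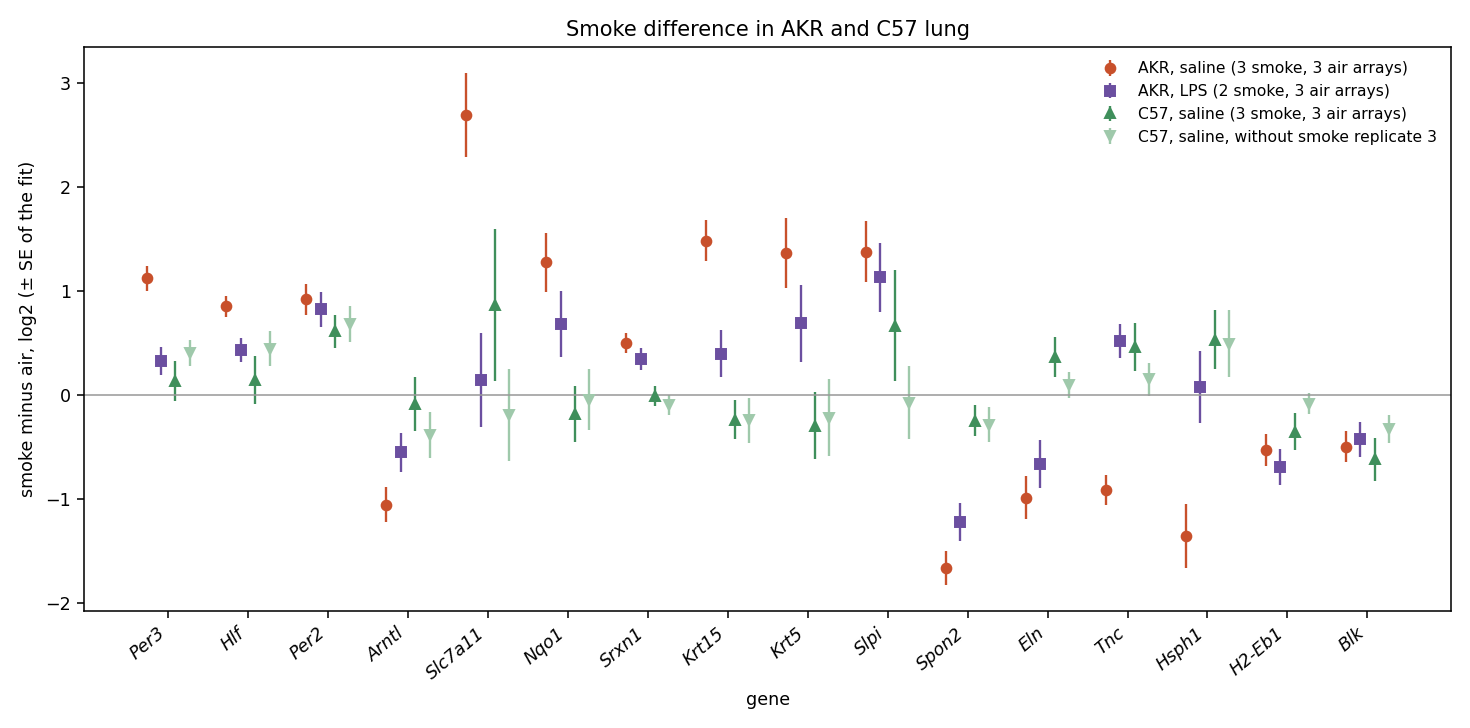
Smoke minus air difference in log2 with the standard error of the fit for 16 genes: AKR with saline, AKR with LPS, and C57 with saline with and without smoke replicate 3, whose Saa3 value lies far above its group. Slc7a11, Krt15 and Spon2 lie farther from 0 in AKR with saline than in the other 3 series, Per2 and Blk have the same sign in all 4 series, and Tnc and Hsph1 are negative in AKR with saline and positive in the other 3.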

How the data were processed

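Whole-lung RNA of 31 arrays was measured on a mouse expression array. The authors deposited log2 values per probe set, made with RMA (background correction, quantile normalization and summary) per the submitters' processing notes, and its version is not given in the sources used here. AKR and C57 arrays had different value distributions, so levels were not compared between strains. Of 35556 probe sets, 21789 had 1 gene symbol, 1621 several and 12146 none in the annotation used, and 999 genes had several probe sets. Genes above the 40th percentile of an array on at least 3 arrays were tested (14199), with 1 probe set a gene, the one with the highest mean. The 13 AKR arrays of 5 groups were fitted with limma 3.58.1 (R 4.3.3), and p-values were Benjamini-Hochberg adjusted over all genes. The C57 contrasts came from a fit of the saline arrays of both strains. The number of arrays limits the precision.

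Genes were named by a rule: genes past the threshold, filled to 10 a direction with the largest differences without overlap, up to 4 of each list, and 20 genes given singly. Others named, among them further list members and the 4 genes whose smoke difference changed with LPS, were chosen after their values were seen. The gene lists and genes were chosen with earlier results of these data known. The fit was tested on simulated data with independent noise for each gene and array. Such data lack array-wide patterns like those of the replicate 3 arrays, so the test does not cover them. Figures were drawn with matplotlib 3.10.9.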

Additional observations from a re-analysis of the deposited data

Results flagged for a closer look

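The smoke difference in AKR lung changed with the instilled agent for 4 genes, by limma's test of the difference between LPS and saline. Hal, which encodes histidine ammonia-lyase, differed by -0.13 with saline and 1.30 with LPS, an interaction of 1.43 (adjusted p = 0.00227, limma). Slc16a6, a carrier of the monocarboxylate family, differed by -0.39 with saline and 0.84 with LPS, an interaction of 1.23 (adjusted p = 0.0122, limma). Thbs1, the matrix glycoprotein thrombospondin 1, differed by -0.76 with saline and 0.73 with LPS, an interaction of 1.49 (adjusted p = 0.0470, limma). Trmt61a, a subunit of a tRNA methyltransferase, differed by -0.36 with saline and 0.47 with LPS, an interaction of 0.82 (adjusted p = 0.0470, limma). Each mean lay lower with smoke than with air after saline and higher after LPS. For Hal the difference after saline was small, and its sign turned with room air alone as the control (0.26). The log2 values of Thbs1 were 11.38, 11.58 and 11.38 with air and 10.83, 10.64 and 10.59 with smoke after saline, where the groups are given in the order of replicates 1 to 3. The LPS comparison rests on 2 smoke arrays, and the differences after saline alone did not pass the adjusted threshold.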

How the results depend on the processing

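The smoke comparison with saline, 4 genes by the main processing, gave 1 gene with the 6 arrays alone and 1 with the 2 arrays of room air alone added. Both times it was Spon2, and 0 genes passed on the higher side. The comparison gave 12 with all 16 AKR arrays and 11 with all 31, both of which add arrays of the other value distribution. All 4 genes of the main processing were among the 12, but only 1 of them was among the 11. With array weights the comparison gave 360, without both replicate 3 arrays 214 and with room air alone as the control 213. Among the 6 arrays the weights were lowest on the replicate 3 arrays, 0.342 for air and 0.434 for smoke. The 360 therefore leans on the same selection as leaving those arrays out, and supports no change. Leaving out single arrays gave 0 to 44. Deviations of same-numbered arrays from their group means had correlations of -0.12, -0.18 and -0.55. Such values from 3 arrays a group cannot decide whether the numbers pair arrays by day or cage. A replicate block gave 0 for smoke with saline, 0 for the interaction with LPS and 0 for the strain interaction (limma, with 497, 883 and 510 genes at an unadjusted p under 0.05). The remaining alternatives gave 4 or 5 for smoke with saline. The interaction with LPS, 4 genes, gave 10 with equal array medians, 2 with a trended robust prior, 0 with all 31 arrays and 1 to 9 leaving out single arrays. The strain interaction, 0 genes, gave 0 to 1 leaving out single arrays, the 1 without AKR smoke saline replicate 3. Of 98 genes followed, 89 were run under all 21 alternatives and 72 of these kept their sign, and 6 of the other 9 kept it under those they were run under. With room air alone as the control the sign turned for Hsph1 (0.776), Snora31 (0.777), Tiparp (-0.133), Dbp (-0.0239), Hspa8 (0.183), Hspd1 (0.413), Hspe1 (0.522), Dnaja1 (0.215), Dnajb1 (0.133), Chordc1 (0.229), Hsp90aa1 (0.338), Mmp12 (-0.385), Trem2 (-0.135), Atp6v0d2 (-0.378) and Hal (0.26). Leaving out single arrays turned it for Gclc (-0.00945 to 0.24), Hmox1 (-0.0863 to 0.206), Cd22 (-0.139 to 0.0121) and Usp18 (-0.0254 to 1.18). It also turned for Hmox1 after quantile normalization (-0.000395), for Hspe1 without both replicate 3 arrays (0.0608) and with array weights (0.0798), and for Krt14 with array weights (-0.0153). The cause was not tested. List counts with room air alone as the control or with arrays left out were added after seeing the data.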

Other observations

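Mesothelial genes, of the cells that line the pleura, differed among themselves. Of 7 tested over the 6 arrays, 0 passed the adjusted threshold, 1 was higher and 3 were lower at an unadjusted p under 0.05 (4.06% and 3.52% of all genes), and the median difference was -0.53. Upk3b, Wt1 and Lrrn4 were the lower ones, at -0.95 ± 0.31, -0.53 ± 0.16 and -0.93 ± 0.38, all with overlapping groups. Krt19, a keratin that airway epithelium also makes, was the higher one at 0.69 ± 0.18, with the smoke arrays wholly above. The values of Upk3b were 11.27, 11.58 and 10.21 with air and 9.51, 10.18 and 10.51 with smoke, so that air replicate 3 was the lowest of the air arrays and lay below smoke replicate 3, the highest of the smoke arrays. Room air alone lay at 10.92 and 10.80, within the range of the air arrays.

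Genes that glucocorticoids induce were partly higher. Of 12 tested, 3 were higher and 1 lower at an unadjusted p under 0.05 (4.06% and 3.52% of all genes), and the median difference was 0.26. Fkbp5, a chaperone of the glucocorticoid receptor, had values of 7.73, 7.80 and 7.63 with air and 8.52, 8.41 and 8.26 with smoke, a difference of 0.67 ± 0.22 (adjusted p = 0.524, limma). The 3 smoke arrays lay above the 3 air arrays, and room air alone, at 7.39 and 7.58, lay below the air arrays. Zbtb16, another such target, lay at 9.85, 9.74 and 8.94 with air and 10.62, 10.22 and 9.91 with smoke. Among p53 targets, 2 of 9 were higher at that threshold and the median was 0.14. Trp53inp1, which promotes autophagy and cell death, had values of 9.74, 9.66 and 9.81 with air and 10.17, 10.25 and 10.17 with smoke, a difference of 0.46 ± 0.09 (adjusted p = 0.176, limma). Ces1g, a carboxylesterase, differed by 1.01 ± 0.15 with smoke arrays at 8.86, 8.78 and 8.35 and air arrays at 7.62, 7.89 and 7.43. Genes of the unfolded protein response, cholesterol synthesis and the cell cycle had medians of -0.02, -0.12 and -0.04, with 1, 0 and 0 genes higher and 2 lower in each at an unadjusted p under 0.05.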
